A study of Homo sapiens with 12 samples.

Results

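Tubacin is a small molecule that inhibits the deacetylase HDAC6, and the response described here is that of HCC38 cells given tubacin with no other drug. HCC38 is an established triple-negative breast cancer cell line. Its RNA was measured on whole-transcript arrays in 4 groups of 3 samples each. Control cells received the vehicle DMSO, and the other cells received 5 µM tubacin, 5 µM erastin, or 5 µM erastin together with 5 µM tubacin. The comparison of tubacin alone with control uses 6 of the 12 samples, and it was made over 22392 genes, each read by a probe set that carries the symbol of that gene and no other. Erastin blocks the cystine carrier SLC7A11, and the 6 samples that contain it serve to read the same drug against another background and to estimate the spread between samples. The sample labels give a treatment of 18 h, and the study's methods give a longer time. Each drug was used at a single dose. One label field counts through the line names from HCC38 up to HCC49, 1 name a sample. The sample titles and the field for the cell line read HCC38 in every case, and that name was used. The methods describe the treatment as done in triplicate, but do not call the triplicates separate cultures, and the labels are silent on this, so a p-value here reflects how these samples varied, and part or all of that variation may be technical.

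HDAC6 differs from most histone deacetylases in that it works mainly in the cytoplasm. It removes acetyl groups from alpha-tubulin in microtubules, from the chaperone HSP90 and from the actin-binding protein cortactin, and it carries a zinc finger that binds ubiquitin and guides misfolded proteins to the aggresome. ATAT1 is the enzyme that puts the acetyl group on alpha-tubulin, and SIRT2 is another enzyme that removes it. Tubacin acts on the protein, and acetylation leaves no direct trace on an RNA array, so the degree to which HDAC6 was inhibited is not read from these values.

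Levels are log2 values that the authors obtained by RMA, so that a difference of 1 is a 2-fold change. The array medians lay between 3.06 and 3.12, and arrays correlated at 0.982 to 0.985 between control samples, 0.986 to 0.987 between tubacin samples and 0.982 to 0.986 between the groups. The defining epithelial genes CDH1, EPCAM and KRT19 read 10.53, 10.46 and 10.42 in the control mean, while the leukocyte gene PTPRC read 1.84 and the estrogen receptor gene ESR1 read 2.27. These are single markers. A mean level of at least 5 over all samples was reached by 23 of 25 measured epithelial genes and 2 of 9 leukocyte markers. It was also reached by 3 of 6 fibroblast markers, 1 of 6 endothelial markers and 4 of 11 hormone-sensing luminal genes. Each change below is the tubacin mean minus the control mean of 3 samples each, with its standard error (SE) from limma. A gene is said to rise or fall when its adjusted p is under 0.05 over all 22392 genes.

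Tubacin alone changed 52 genes, 0.232% of those tested, of which 24 rose (0.107%) and 28 fell (0.125%). When the arrays were first centred on their medians, the split was 17 higher and 31 lower. Of the 52 genes, 11 changed at least 2-fold, and the sizes ran from 1.32-fold for ST6GALNAC2 to 3.03-fold for KCNJ6. The 3 control and 3 tubacin samples did not overlap for any of the 52 genes, and this was also true of 3547 genes in all (15.8%). An unadjusted p under 0.05 was reached by 2290 genes, 10.2% of those tested. With dim genes left out, those with a mean level under 5 over all samples, 10357 genes were tested and 205 were called, 100 higher and 105 lower. The text gives the calls of that test beside each list it describes where they differ. Of the 52 genes, 9 were too dim to enter it, among them LIPK, KCNJ6, ANKRD22, PI15 and TSPAN18. Just inside the threshold lay SMOX and COL4A1, with adjusted p-values of 0.0475 and 0.0479, and just outside lay EPHB3, ATP2B1 and TINAGL1, each with an adjusted p of 0.0525. These calls rest on a spread estimated from all 4 groups, erastin included. When limma was fitted to the 6 samples alone, the changes were equal in size but no gene was called, the smallest adjusted p was 0.0837, and 1976 genes had an unadjusted p under 0.05. With 3 samples against 3, an exact permutation test of a gene cannot go below a p of 0.1.

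**Figure D1:**
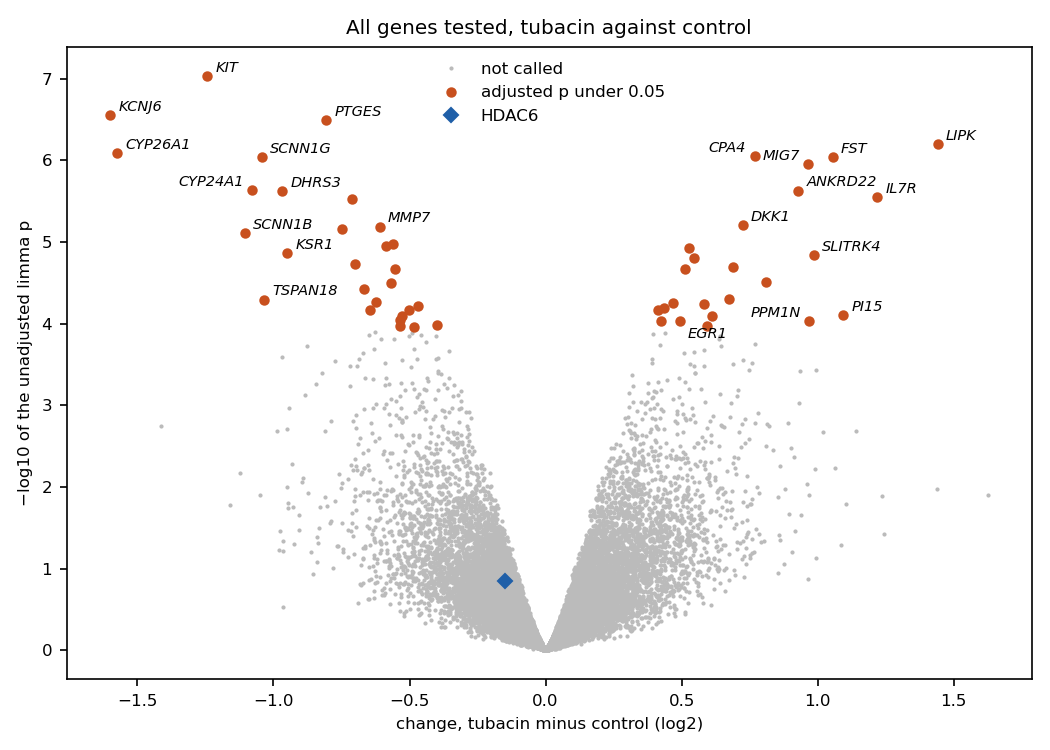
Each point is 1 of the 22392 genes, with the change between tubacin and control on the log2 scale along the horizontal axis and the negative log10 of the unadjusted limma p on the vertical axis. The 52 called genes lie at the upper edges of both arms, KIT has the smallest p, and HDAC6 (blue diamond) lies among the uncalled genes with a change of -0.15.

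The largest falls included genes that break down or reduce retinoids. Retinoic acid, made from vitamin A, binds the RAR and RXR receptors, which switch on genes for its own removal, the CYP26 enzymes that oxidize retinoic acid and DHRS3, which reduces retinaldehyde back to retinol. CYP26A1, the best known target of retinoic acid in this family, read 6.32, 6.68 and 6.22 in the control samples and 4.83, 4.64 and 5.01 with tubacin. It fell by 1.58 ± 0.15, or 2.98-fold (adjusted p = 0.00257), and its highest tubacin sample lay more than 1 log2 unit below its lowest control sample. DHRS3 read 7.90, 7.99 and 7.75 in control and 6.91, 7.05 and 6.77 with tubacin, a drop in every sample that came to 1.96-fold (adjusted p = 0.00443). CYP26B1 fell less, by 0.47 ± 0.073 from 6.45, 6.57 and 6.55 to 6.12, 6.02 and 6.02 (adjusted p = 0.0366), and it kept its call in 1 of the 12 fits that left out 1 sample, with an adjusted p of up to 0.155. CYP26A1 and DHRS3 kept theirs in all 12. Of these 12 fits, 6 left out a control or tubacin sample. The rest changed only the estimated spread and not the difference between tubacin and control.

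Of the 24 measured genes of retinoic acid metabolism, reception and response, these 3 fell and 0 rose. The median change of the 24 was -0.11, against 0.00 for all genes, and 17 of them lay below 0, a count that was also 17 under each of 3 other scalings of the arrays. RARRES1, a retinoic acid responsive gene, differed by -0.53 ± 0.13 (adjusted p = 0.188), and RARB, a receptor gene that is itself induced by retinoic acid, by -0.25 ± 0.14 (adjusted p = 0.588). The receptor genes RARA and RARG differed by -0.003 and -0.073, with 95% intervals of -0.22 to 0.21 and -0.33 to 0.18. The enzymes that make retinoic acid, ALDH1A1, ALDH1A2 and ALDH1A3, did not pass the test either, with differences of 0.14, -0.29 and -0.34. CYP26C1, the remaining CYP26 gene, was dim at 2.94 and differed by 0.089 ± 0.19.

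**Figure D2:**
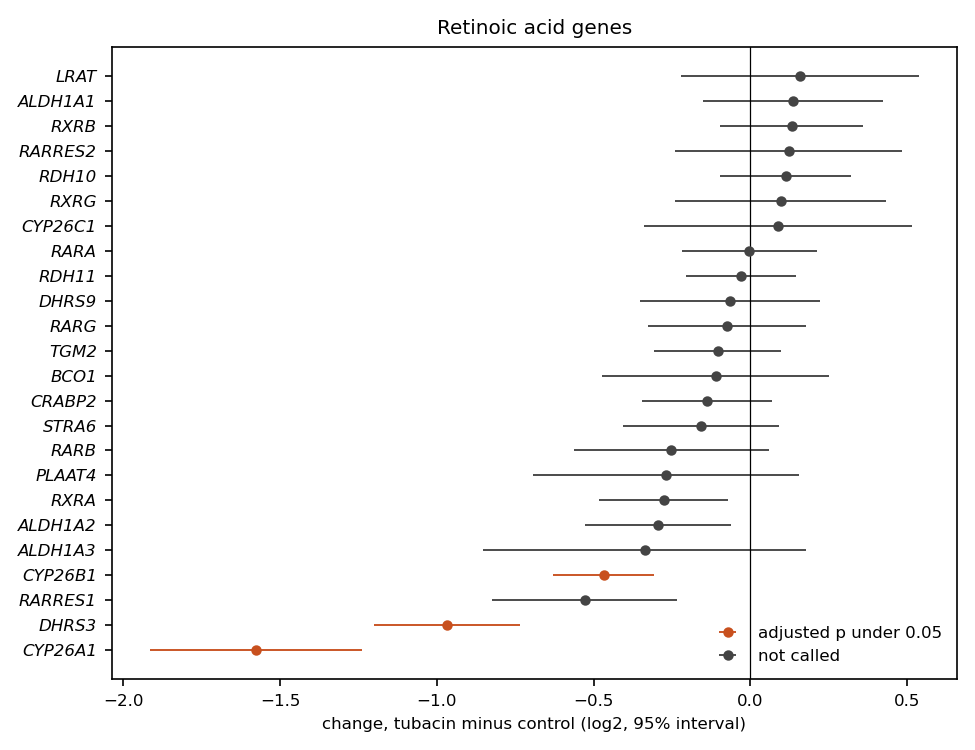
Each row is 1 of the 24 measured retinoic acid genes, and each point is its change between tubacin and control on the log2 scale with its 95% interval. CYP26A1, DHRS3 and CYP26B1 (orange) passed the threshold, and the interval of RARRES1 also lies below 0 although its adjusted p was 0.188.

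The stretch upstream of CYP26A1 is shown because a retinoic acid response element is known from this promoter. Of the 250 bases before the RefSeq start of CYP26A1, capitals mark a pair of half-sites spaced 5 bases apart, the arrangement called DR5, which begins 90 bases before the start and reads on the opposite strand. The same motif, searched by its name-giving half-sites on both strands, was found in 26 of 35116 upstream windows of this length (0.074%), and among the changed genes with a window it was found in 1 of 22 that fell and 0 of 15 that rose. A match describes letters only.
CYP26A1 (GRCh38.p14, chr10:93073643-93073892, plus strand): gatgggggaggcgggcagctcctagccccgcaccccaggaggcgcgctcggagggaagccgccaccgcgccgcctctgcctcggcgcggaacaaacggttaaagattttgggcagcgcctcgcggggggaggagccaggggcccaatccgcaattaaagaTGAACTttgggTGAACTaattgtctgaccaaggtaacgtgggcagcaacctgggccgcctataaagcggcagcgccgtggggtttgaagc

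A pair of subunits of the epithelial sodium channel fell together. This channel, ENaC, lets sodium into epithelial cells and is built from alpha, beta and gamma subunits encoded by SCNN1A, SCNN1B and SCNN1G. SCNN1B read 7.25, 7.09 and 7.20 in the control samples and 5.92, 6.14 and 6.15 with tubacin, a fall of 1.11 ± 0.14 or 2.15-fold (adjusted p = 0.00972). SCNN1G read 7.92, 7.88 and 7.76 in control and 6.61, 6.86 and 6.97 with tubacin, a fall of 1.04 ± 0.10 or 2.06-fold (adjusted p = 0.00257). The groups did not overlap for either gene, as for all 52 called genes. The alpha subunit SCNN1A was present at 6.88 in control and differed by -0.046, with a 95% interval of -0.27 to 0.18. SCNN1B and SCNN1G are immediate neighbours in the RefSeq gene order on chromosome 16, and the coding genes on either side, USP31 and COG7, differed by 0.068 and 0.12. Of 18 measured genes of the channel and its regulators, the 2 subunits fell and 0 rose, and the list median was -0.022. HSD11B2, which protects the mineralocorticoid receptor from cortisol, differed by -0.69 ± 0.13 (adjusted p = 0.0794) and was called lower with dim genes left out, while SGK1, a kinase that keeps the channel at the surface, differed by 0.18 ± 0.097. Without tubacin replicate 1, SCNN1B had an adjusted p of 0.0568, and SCNN1G was called in all 12 fits.

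KIT had the smallest adjusted p of all genes. KIT, the receptor tyrosine kinase for stem cell factor, marks luminal progenitor cells in the mammary epithelium and is common in basal-like breast cancers. It read 8.25, 8.32 and 8.34 in the control samples, a spread of less than 0.1, and 7.18, 6.91 and 7.09 with tubacin. It thus fell by 1.24 ± 0.097, or 2.37-fold (adjusted p = 0.00206). No other of the 38 measured receptor tyrosine kinases was called, and their median change was -0.10. EPHB3, an ephrin receptor, came closest with a difference of -0.63 ± 0.11 and an adjusted p of 0.0525, and was called lower with dim genes left out. All 9 measured luminal progenitor genes lay below 0, with a median of -0.28, but KIT was the only one called, and under quantile or cyclic loess scaling 8 of the 9 lay below 0. ELF5, a transcription factor of luminal progenitors, differed by -0.28 ± 0.064 (adjusted p = 0.15) and was called lower with dim genes left out. Since each sample is RNA of a whole culture, less RNA per cell and fewer cells with the RNA cannot be told apart.

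Other large falls were in a channel, a vitamin D enzyme and membrane proteins. KCNJ6 encodes the inward rectifier potassium channel GIRK2, which opens on G protein signals. It read 3.91, 4.24 and 3.81 in control and 2.50, 2.28 and 2.39 with tubacin, the largest change of any called gene at 1.60 ± 0.14 lower or 3.03-fold (adjusted p = 0.00239). These are low levels, no detection calls come with the values, and none of the other 12 measured genes of the KCNJ family was called. With dim genes left out, no gene of this family was tested. CYP24A1, which inactivates vitamin D, read 5.98, 5.93 and 6.03 in control and 4.90, 5.04 and 4.74 with tubacin, a fall of 1.08 ± 0.12 or 2.11-fold (adjusted p = 0.00443). TSPAN18, a tetraspanin of the plasma membrane, read 4.94, 5.30 and 5.01 in control and 4.34, 3.84 and 3.97 with tubacin, a fall of 1.03 ± 0.16 (adjusted p = 0.0343). Its call was lost in 9 of the 12 fits with a sample left out, with an adjusted p of up to 0.145, whereas KCNJ6 and CYP24A1 kept theirs in all 12.

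The falls also took in genes of several unrelated functions. KSR1, a scaffold that holds RAF, MEK and ERK together, read 7.99, 7.79 and 7.73 in control and 6.92, 6.80 and 6.94 with tubacin, a fall of 0.95 ± 0.13 or 1.93-fold (adjusted p = 0.0137). PTGES, the inducible synthase of prostaglandin E2, read 9.53, 9.40 and 9.49 in control and 8.66, 8.65 and 8.69 with tubacin, a tight fall of 0.81 ± 0.071 (adjusted p = 0.00239). ISLR2, a leucine-rich repeat protein of the cell surface, read 7.52, 7.54 and 7.29 in control and 6.66, 6.67 and 6.78 with tubacin, a fall of 0.75 ± 0.091 (adjusted p = 0.00924). OLFML2B, a secreted protein with an olfactomedin domain, read 8.12, 8.02 and 8.19 in control and 7.45, 7.27 and 7.47 with tubacin, a fall of 0.71 ± 0.079 (adjusted p = 0.00475). In each of these 4 genes every tubacin sample lay below every control sample. The groups were likewise separate for all 52 called genes and for 15.8% of all genes. PLCG2, a phospholipase C downstream of receptors, fell by 0.67 ± 0.099, and the membrane protein gene LHFPL2 by 0.70 ± 0.095. A dimmer probe set of PLCG2, with a mean of 1.59, differed by 0.053 ± 0.14, so the fall of that gene rests on the brighter one. SIK1, a salt-inducible kinase that responds to cyclic AMP, fell by 0.55 ± 0.077 and CABLES1, a cyclin-dependent kinase adaptor, by 0.57 ± 0.082. With a sample left out, ISLR2 was called in 10 of the 12 fits, KSR1 and LHFPL2 in 7, SIK1 and CABLES1 in 6 and PLCG2 in 5. SIK1 lost its call in every fit without a control or tubacin sample. Among those fits, KSR1 kept its call only without control replicate 3 and PLCG2 only without control replicate 1. LHFPL2 and CABLES1 kept theirs there only without control replicate 2.

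JAG1, a ligand of Notch receptors, read 9.52, 9.49 and 9.66 in control and 9.02, 8.87 and 9.02 with tubacin and fell by 0.59 ± 0.075 (adjusted p = 0.0124). Of 16 measured Notch pathway genes it was the only one called, with a list median of -0.11. With dim genes left out, 9 of the list were tested and 3 were called lower, beside 105 of all 10357 genes. They were JAG1, the receptor NOTCH1 and the target HEY2, and their changes were -0.59 ± 0.075, -0.40 ± 0.074 and -0.59 ± 0.12. JAG1 lost its call without tubacin replicate 1 or 2, with an adjusted p of up to 0.0744.

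**Figure D3:**
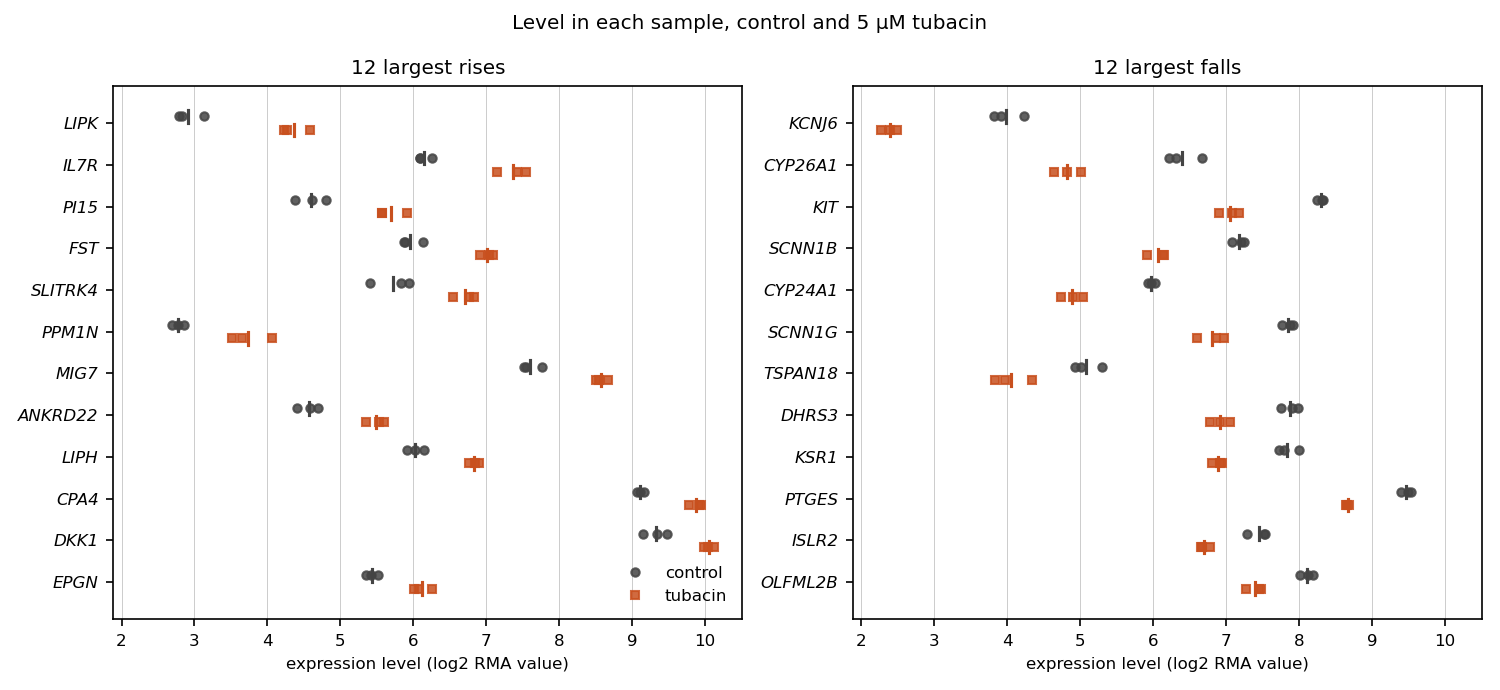
Each row is a gene, and each point is 1 of the 3 control samples (grey circles) or 3 tubacin samples (orange squares) on the log2 RMA scale, with a vertical tick at the group mean. The 12 largest rises are on the left and the 12 largest falls on the right. In all 24 rows the groups are separated, as for all 52 called genes, with KCNJ6 at 3.99 in its control mean and 2.39 with tubacin.

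LIPK showed the largest rise, and ANKRD22, which lies nearby in the genome, also rose. LIPK belongs to the acid lipase family, several members of which are expressed in differentiating skin. It read 2.79, 2.83 and 3.13 in the control samples and 4.26, 4.23 and 4.58 with tubacin, a rise of 1.44 ± 0.14 or 2.71-fold (adjusted p = 0.00257). ANKRD22, an ankyrin repeat gene, read 4.70, 4.41 and 4.59 in control and 5.53, 5.59 and 5.35 with tubacin, a rise of 0.93 ± 0.10 or 1.9-fold (adjusted p = 0.00443). The groups did not overlap for either gene, as for all 52 called genes, and LIPK is dim in control. In the RefSeq order of coding genes on chromosome 10, LIPK and ANKRD22 are separated by 2 other lipase genes, LIPN and LIPM, which read 1.63 and 2.01 in control and differed by 0.35 ± 0.24 and 0.023 ± 0.12. STAMBPL1, beyond ANKRD22, differed by 0.33 (adjusted p = 0.337). LIPK was the only one called of 6 measured acid lipase genes. All 6 were too dim to be tested with dim genes left out. LIPH, a phospholipase of another family that releases lysophosphatidic acid, read 6.02, 6.14 and 5.92 in control and 6.90, 6.77 and 6.84 with tubacin, a rise of 0.81 ± 0.12 (adjusted p = 0.0237). That call was lost in 7 of the 12 fits with a sample left out, among them every fit without a control or tubacin sample.

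Other rises were in secreted factors and a cytokine receptor. IL7R, the alpha chain of the interleukin 7 receptor, read 6.09, 6.10 and 6.26 in control and 7.15, 7.54 and 7.42 with tubacin, a rise of 1.22 ± 0.14 or 2.33-fold (adjusted p = 0.00475). FST, which encodes follistatin, the secreted binder and inhibitor of activin, read 5.87, 6.13 and 5.88 in control and 7.04, 7.09 and 6.91 with tubacin, a rise of 1.06 ± 0.10 or 2.08-fold (adjusted p = 0.00257). DKK1, a secreted inhibitor of Wnt signalling, read 9.15, 9.48 and 9.34 in control and 10.12, 10.04 and 9.99 with tubacin, a rise of 0.72 ± 0.087 (adjusted p = 0.00905). All 3 were separated from control, as all 52 called genes were. IL7R and FST kept their calls in all 12 fits with a sample left out. DKK1 lost its call without tubacin replicate 1 or 2, with an adjusted p of up to 0.0568. EPGN, which encodes epigen, a ligand of the EGF receptor, read 5.35, 5.42 and 5.51 in control and 6.08, 6.25 and 6.02 with tubacin, a rise of 0.69 ± 0.094 (adjusted p = 0.0172). It was the only one called of 10 measured ligands of this receptor family, whose median change was 0.16, and EREG, the gene of epiregulin, differed by 0.39 ± 0.074 (adjusted p = 0.077) and was called higher with dim genes left out. TNFSF15, a cytokine of the TNF family, rose by 0.53 ± 0.068 and LIF, a cytokine of the interleukin 6 family, by 0.43 ± 0.068. With a sample left out, EPGN and TNFSF15 were each called in 8 of the 12 fits and LIF in 0. EPGN lost its call without control replicate 1 or 2 or tubacin replicate 1 or 2. TNFSF15 lost its call without control replicate 2 or any tubacin replicate.

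FST was the only called gene of 30 measured for TGF beta, activin and BMP signalling, DKK1 the only one of 11 Wnt targets, and IL7R and LIF the 2 called of 26 interleukin receptor and IL6 family genes. The medians of these lists were -0.029, 0.070 and -0.063. An unadjusted p under 0.05 was reached by 12 of the 30 (40%), 3 of the 11 (27.3%) and 5 of the 26 (19.2%), beside 10.2% of all genes. With dim genes left out, the ligand gene BMP2 (0.33 ± 0.079) was called higher in the first list and BAMBI (-0.53 ± 0.099), a decoy receptor, lower, while IL11 (-0.50 ± 0.086) and the LIF receptor gene LIFR (-0.40 ± 0.078) were called lower in the last. IGFBP4, a secreted carrier of insulin-like growth factors, fell by 0.56 ± 0.072.

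A pair of transcription factors that follow ERK signalling also rose. EGR1, an immediate early gene, read 8.68, 8.77 and 8.91 in control and 9.19, 9.37 and 9.27 with tubacin, a rise of 0.49 ± 0.081 (adjusted p = 0.0435). FOSL1, which encodes the AP-1 subunit FRA1, read 10.15, 10.30 and 10.27 in control and 10.63, 10.66 and 10.71 with tubacin, a rise of 0.43 ± 0.070 (adjusted p = 0.0435). Both genes were bright and the steps were small, 1.41-fold and 1.34-fold. They were the 2 called of 21 measured genes of ERK pathway output and feedback, whose median change was 0.075, and the 2 called of 25 immediate early genes, whose median was 0.047. With dim genes left out, 17 of the ERK list were tested, and 6 were called higher and 0 lower. Of all 10357 genes in that test, 100 were called higher and 105 lower. The added members were SPRY2 and SPRY4, feedback inhibitors of receptor signalling, ETV4, an ETS factor, and PHLDA1, and they differed by 0.53 ± 0.11, 0.50 ± 0.12, 0.55 ± 0.13 and 0.38 ± 0.077. With a sample left out, EGR1 was called in 1 of 12 fits and FOSL1 in 0, and the highest adjusted p was 0.176 and 0.166. Targets of SRF in the actin cytoskeleton had 0 calls among 19 measured genes in limma (2 at an unadjusted p under 0.05, or 10.5%), and targets of YAP and TAZ 0 among 22 (10 at an unadjusted p under 0.05, or 45.5%), with medians of 0.038 and 0.041. The ERK list had 10 of 21 at that level (47.6%), beside 10.2% of all genes. CCN1, a matricellular protein gene of the YAP and TAZ list, was called higher with dim genes left out (0.36 ± 0.089).

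The EGR1 promoter is shown because SRF, which binds the CArG box, is a known regulator of this gene. Capitals mark the 2 CArG boxes in the 250 bases before its RefSeq start, which begin 105 and 83 bases before the start. A CArG box on either strand was found in 407 of 35116 windows (1.16%), and among the changed genes with a window in 1 of 15 that rose and 0 of 22 that fell.
EGR1 (GRCh38.p14, chr5:138465229-138465478, plus strand): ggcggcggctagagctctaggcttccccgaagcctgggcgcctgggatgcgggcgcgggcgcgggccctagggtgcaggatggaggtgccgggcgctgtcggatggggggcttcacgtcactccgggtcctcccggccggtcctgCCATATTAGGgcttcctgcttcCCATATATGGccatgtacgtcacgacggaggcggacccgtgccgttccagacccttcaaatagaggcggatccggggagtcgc

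Proteases and their inhibitors changed in both directions. CPA4, a secreted carboxypeptidase first described as a gene induced by histone deacetylase inhibitors in prostate cancer cells, read 9.06, 9.16 and 9.10 in control and 9.94, 9.91 and 9.78 with tubacin, a rise of 0.77 ± 0.075 or 1.7-fold (adjusted p = 0.00257) that was called in all 12 fits with a sample left out. LXN, which encodes latexin, an inhibitor of carboxypeptidases that binds CPA4, read 8.20, 8.31 and 8.41 in control and 7.85, 7.74 and 7.82 with tubacin and fell by 0.50 ± 0.080 (adjusted p = 0.0375). For both genes the groups did not overlap, as for all 52 called genes, and the directions were opposite. LXN was called in 1 of the 12 fits with a sample left out, with an adjusted p of up to 0.162. PI15, a secreted trypsin inhibitor, read 4.80, 4.38 and 4.61 in control and 5.57, 5.58 and 5.92 with tubacin, a rise of 1.09 ± 0.18 (adjusted p = 0.0413) that was called in 2 of those 12 fits. The metalloprotease ADAMTS1 rose by 0.67 ± 0.10, and MMP7, the matrilysin of epithelial cells, fell by 0.61 ± 0.074. ADAMTS1 and MMP7 were the 2 called of 25 measured matrix proteases and inhibitors, with a list median of 0.080. With dim genes left out, 18 of the list were tested, and 3 were called higher and 3 lower, beside 100 and 105 of all 10357 genes. The 3 higher were the urokinase PLAU (0.42 ± 0.075), its receptor PLAUR (0.35 ± 0.077) and ADAMTS1. The 3 lower were ADAM12 (-0.56 ± 0.097), the inhibitor TIMP3 (-0.43 ± 0.087) and MMP7. COL4A1, a chain of the collagen of basement membranes, fell by 0.48 ± 0.081. With a sample left out, MMP7 was called in 10 of the 12 fits, ADAMTS1 in 4 and COL4A1 in 0, and the highest adjusted p for COL4A1 was 0.196. ADAMTS1 lost its call in every fit without a control or tubacin sample.

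The CPA4 promoter is shown because AP-1, to which FRA1 belongs, binds sites such as TGAGTCA and TGACTCA. The motif searched was TGANTCA with N as any base, so the counts below also include other letters at that place. Capitals mark the 2 matches in the 250 bases before the RefSeq start of CPA4, which begin 48 and 15 bases before the start. On both strands the motif was found in 2308 of 35116 windows (6.57%) and for 2200 of 27305 genes (8.06%). Among the changed genes with a window it was found in 5 of 15 that rose, ANKRD22, CPA4, FST, SLITRK6 and TNFSF15, and in 3 of 22 that fell, DHRS3, KSR1 and MMP7.
CPA4 (GRCh38.p14, chr7:130292911-130293160, plus strand): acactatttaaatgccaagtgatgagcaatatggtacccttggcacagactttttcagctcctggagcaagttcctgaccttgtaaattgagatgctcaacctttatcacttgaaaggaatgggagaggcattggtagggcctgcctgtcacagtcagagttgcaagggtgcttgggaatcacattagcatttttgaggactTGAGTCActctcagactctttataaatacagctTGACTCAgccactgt

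The remaining rises were scattered over many functions. SLITRK4, a transmembrane protein known from neurites, read 5.41, 5.93 and 5.83 in control and 6.83, 6.55 and 6.76 with tubacin, a rise of 0.99 ± 0.13 (adjusted p = 0.014), and its relative SLITRK6 rose by 0.47 ± 0.072. MIG7 read 7.51, 7.54 and 7.76 in control and 8.50, 8.55 and 8.66 with tubacin, a rise of 0.97 ± 0.097 (adjusted p = 0.00276), and its other probe set gave a rise of 0.91 ± 0.097. PPM1N, a predicted protein phosphatase, was dim and read 2.85, 2.78 and 2.69 in control and 4.06, 3.65 and 3.51 with tubacin, a rise of 0.97 ± 0.16 (adjusted p = 0.0435). PPM1N kept its call in 1 of the 12 fits with a sample left out, whereas MIG7 kept its call in all 12. Smaller rises were measured for the methyltransferase gene TMT1B (0.61 ± 0.098), the organic anion carrier SLCO4C1 (0.55 ± 0.073), MVP, the main protein of vault particles (0.51 ± 0.071), and HID1, which acts in secretory granule formation (0.41 ± 0.065). TRBV27, a T cell receptor segment, and the microRNA gene MIR412 rose by 0.59 ± 0.099 and 0.58 ± 0.090, at control means of only 1.94 and 3.26. With a sample left out, SLITRK4 was called in 10 of the 12 fits, SLCO4C1 in 8, MVP in 7, TMT1B in 3, MIR412 in 2, SLITRK6 in 1, and HID1 and TRBV27 in 0. The losses of SLITRK4, SLCO4C1 and MVP all came without a control or tubacin sample.

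Among the remaining falls, a pair of enzymes belonged to polyamine metabolism. SMOX, which oxidizes spermine, fell by 0.54 ± 0.090, and AGMAT, known for splitting agmatine into putrescine and urea, by 0.54 ± 0.088. GABRQ, a subunit of GABA-A receptors, fell by 0.53 ± 0.085 and ST6GALNAC2, a sialyltransferase, by 0.40 ± 0.066. The non-coding RNA gene LINC00673 and the pseudogene LDC1P fell by 0.62 ± 0.095 and 0.64 ± 0.10. Each of these 6 genes was called in at most 2 of the 12 fits with a sample left out. In all, 14 of the 52 genes were called in every such fit, LIPK, IL7R, FST, MIG7, ANKRD22 and CPA4 among the rises and KCNJ6, CYP26A1, KIT, CYP24A1, SCNN1G, DHRS3, PTGES and OLFML2B among the falls.

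The genes nearest to the drug's target gave no call. HDAC6 read 6.46, 6.29 and 6.43 in control and 6.21, 6.29 and 6.23 with tubacin, a difference of -0.15 ± 0.094 (adjusted p = 0.636) with a 95% interval of -0.36 to 0.058, so a 2-fold change of its RNA lies outside the interval. ATAT1 read 7.44, 7.02 and 6.76 in control and 6.94, 7.28 and 7.001 with tubacin, with an interval of -0.39 to 0.39. SIRT2 differed by 0.22 ± 0.086 (adjusted p = 0.419). Of 17 measured deacetylases and sirtuins 0 were called in limma, 3 had an unadjusted p under 0.05, and HDAC5, at 0.33 ± 0.081, had the smallest adjusted p of 0.18. With dim genes left out before the test, HDAC5 alone of this list was called. The intervals of HDAC1, HDAC2, HDAC3, HDAC4, HDAC7, HDAC8, HDAC9 and HDAC11 all included 0, and the farthest bound among them was -0.40, for HDAC4. SIRT6 had the largest change of the list, 0.38 ± 0.12 with an interval of 0.12 to 0.64 (adjusted p = 0.305). The interval of SIRT2, 0.028 to 0.41, also lay above 0. Known substrates and partners of HDAC6 gave 0 calls of 16 with a median of 0.045, and 2 had an unadjusted p under 0.05. Tubulins and other microtubule genes gave 0 calls of 20 with a median of 0.018, and 0 reached an unadjusted p under 0.05. Among genes often induced by inhibitors of many deacetylases, 0 of 6 were called and 1 had an unadjusted p under 0.05, and CDKN1A, the gene of the cell cycle inhibitor p21, differed by -0.078 ± 0.13, with an interval of -0.37 to 0.21. CPA4, described above as induced by histone deacetylase inhibitors in prostate cancer cells, is not in that list. It rose by 0.77 ± 0.075.

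Stress, death and cell cycle lists also had 0 calls with tubacin alone. These were heat shock proteins (13 genes), autophagy genes (27), targets of ATF4 and CHOP (34), NRF2 targets (24), ferroptosis and glutathione genes (24), metallothioneins (11), zinc transporters (24), iron handling (28), the pro-apoptotic BCL2 family (13) and DNA replication genes (34), with list medians from -0.051 to 0.082. Of the 221 genes in these 10 lists, 32 had an unadjusted p under 0.05 in limma (14.5%, beside 10.2% of all genes). The share was highest for targets of ATF4 and CHOP (12 of 34, 35.3%) and the pro-apoptotic BCL2 family (4 of 13, 30.8%). It was lowest for heat shock proteins (0 of 13) and DNA replication genes (1 of 34, 2.94%). Since 0.232% of all genes were called, 0 calls in lists this short cannot show that they were unaffected. With dim genes left out before the test, 8 genes of these lists were called, beside 205 of all 10357 genes tested. Not all of the 221 entered that test, which took in 7 of the 11 metallothioneins and 16 of the 24 zinc transporters. WIPI1 of the autophagy list (0.31 ± 0.065), the transferrin receptor gene TFRC (0.38 ± 0.080), the iron reductase gene CYBRD1 (0.43 ± 0.096), PTGS2 (0.53 ± 0.10) and the cystine carrier SLC7A11 (0.25 ± 0.067) were higher, while SLC7A5 (-0.46 ± 0.079), the zinc transporter SLC30A4 (-0.45 ± 0.093) and TYMS (-0.35 ± 0.064) were lower. The 31 mitosis genes had 0 calls too, but 28 of them lay below 0 with a median of -0.13, and under the 3 other scalings 27 to 30 lay below 0. The smallest adjusted p among them was 0.299, and 6 had an unadjusted p under 0.05. Genes the study followed in the combination had these values with tubacin alone. The death genes BCL2L11 and BBC3 differed by -0.28 ± 0.099 and 0.39 ± 0.19, and the stress genes ATF3, DDIT3 and HMOX1 by -0.21 ± 0.15, 0.24 ± 0.30 and 0.16 ± 0.091. The zinc exporter genes SLC30A1 and SLC30A2 differed by 0.037 ± 0.067 and 0.13 ± 0.17, and the metallothionein genes MT1G, MT1H and MT1M by -0.14 ± 0.23, -0.30 ± 0.40 and -0.38 ± 0.13. None of these 10 passed the test, and the smallest adjusted p was 0.337.

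The same drug was also given to cells that received erastin, and that comparison of 3 samples against 3 shares none of the 6 samples described so far, although the fit shares its estimate of the spread. There, adding tubacin changed 5782 genes (25.8%), 2508 upward (11.2%) and 3274 downward (14.6%). Of the 28 genes that fell with tubacin alone, 18 also fell when it was added to erastin, 4 rose and 6 were not called. Of the 24 that rose, 8 also rose, 9 fell and 7 were not called. The 26 genes that moved in the same direction are 50% of the 52 and 0.45% of the 5782. The median change of the 28 was -0.66 alone and -0.42 with erastin, and that of the 24 was 0.68 alone and -0.073 with erastin. The interaction, which is the change on adding tubacin to erastin minus the change with tubacin alone, was called for 20 of the 24 rises and 15 of the 28 falls, beside 3369 of all genes (15%, of which 6.2% of genes were positive and 8.84% negative). The 52 genes were chosen for their change with tubacin alone, which is part of the interaction, so this count is a description.

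CYP26A1, DHRS3 and both sodium channel subunits fell in both settings. CYP26A1 changed by -1.83 ± 0.15 when tubacin was added to erastin, and DHRS3 by -1.22 ± 0.11 (adjusted p = 1.1e-05 and 1.35e-05). The difference between the settings, tested as an interaction, was not called for either gene (-0.25 ± 0.22 and -0.25 ± 0.15, adjusted p = 0.518 and 0.326). CYP26B1 differed by -0.21 ± 0.073 with erastin (adjusted p = 0.0594). SCNN1B changed by -0.93 ± 0.14, while SCNN1G fell further with erastin, by 2.34 ± 0.10, and its interaction was called (-1.30 ± 0.15, adjusted p = 0.000231). KIT changed by -0.81 ± 0.097 and KCNJ6 by -1.05 ± 0.14 with erastin, and the interaction was not called for KIT (adjusted p = 0.0583) or KCNJ6 (adjusted p = 0.0927). CYP24A1, at 4.95 with erastin and 5.10 with both drugs, did not fall further there (0.15 ± 0.12, adjusted p = 0.425).

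Several of the rises went the other way. DKK1 had a mean of 9.995 with erastin and 8.43 with both drugs, a change of -1.56 ± 0.087 (adjusted p = 1e-06). FST changed by -1.07 ± 0.10, MIG7 by -0.78 ± 0.097, CPA4 by -0.47 ± 0.075, EGR1 by -0.62 ± 0.081, FOSL1 by -0.55 ± 0.070, LIF by -0.47 ± 0.068 and TNFSF15 by -0.49 ± 0.068, each past the threshold, so all 8 rose with tubacin alone and fell when it was added to erastin. ANKRD22 was the remaining one of the 9, at -0.31 ± 0.10 (adjusted p = 0.0447). These falls start from the erastin mean, which lay above the control mean for all of the 9 but TNFSF15 (7.13 against 7.40). The means in control, with erastin and with both drugs were 8.14, 9.06 and 8.59 for LIF. They were 10.24, 10.92 and 10.37 for FOSL1, 8.78, 9.24 and 8.63 for EGR1, and 9.11, 9.52 and 9.055 for CPA4. The difference between erastin and control was not tested. IL7R and PI15 changed by -0.001 ± 0.14 and 0.032 ± 0.18 with erastin, and EPGN by -0.12 ± 0.094, and none of the 3 was called. The rises that were also called with erastin were LIPH (1.67 ± 0.12), MVP (1.64 ± 0.071), TMT1B (1.19 ± 0.098), SLCO4C1 (0.75 ± 0.073), HID1 (0.73 ± 0.065), PPM1N (0.67 ± 0.16), ADAMTS1 (0.38 ± 0.10) and MIR412 (0.30 ± 0.090). The 4 genes that fell alone and rose with erastin were ST6GALNAC2 (0.85 ± 0.066), LHFPL2 (0.61 ± 0.095), KSR1 (0.37 ± 0.13) and SMOX (0.36 ± 0.090).

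**Figure D4:**
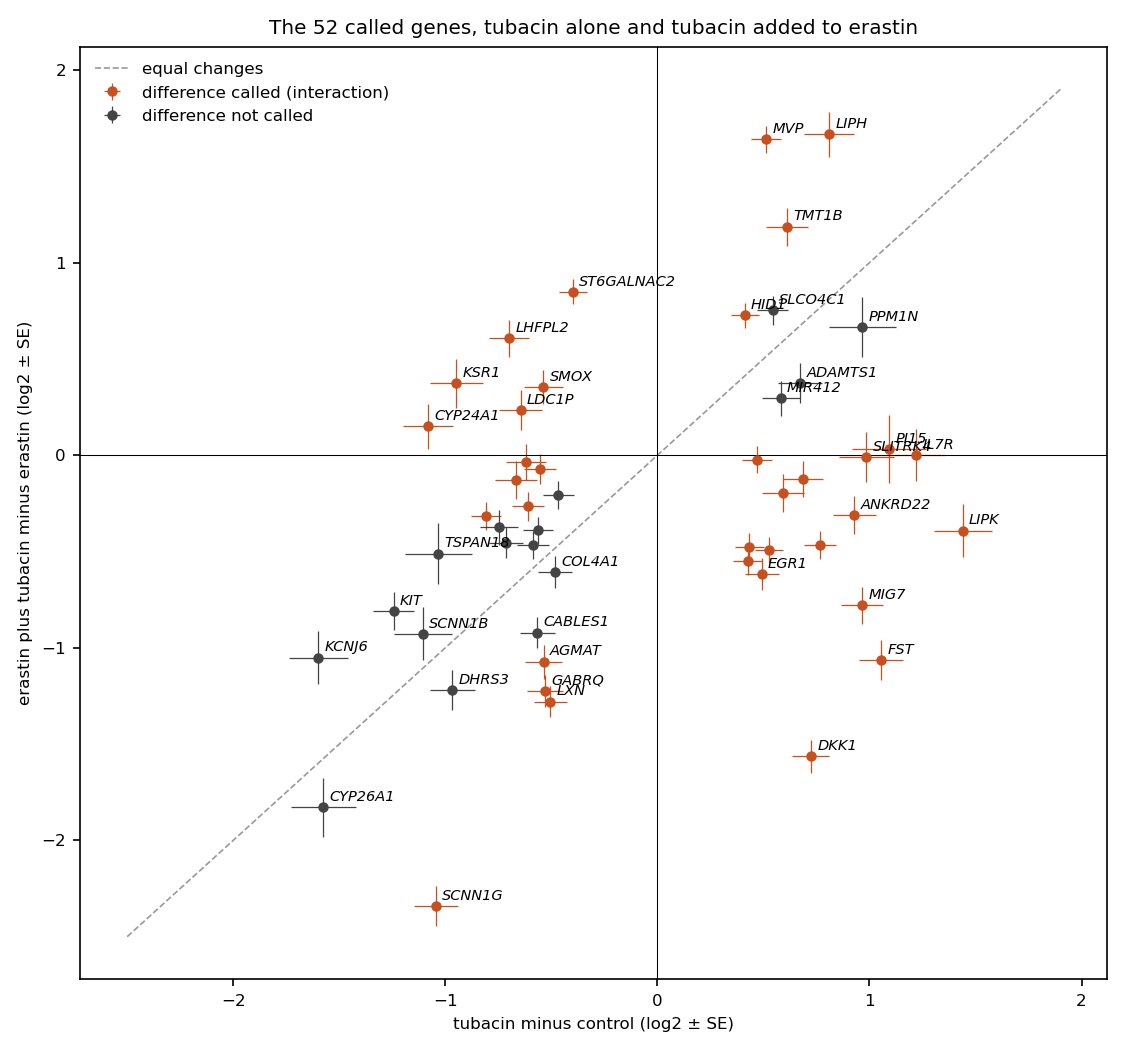
Each point is 1 of the 52 genes, with its change between tubacin and control on the horizontal axis and its change between erastin plus tubacin and erastin on the vertical axis, both on the log2 scale with bars of 1 SE. Points on the dashed line changed equally, orange points have a called interaction (35 of 52), and genes in the crowded middle carry no name. CYP26A1, DHRS3 and SCNN1B lie close to the line, while DKK1 and FST lie far below it.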

How the data were processed

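RNA of 12 samples was hybridised to Human Gene 2.1 ST arrays. The deposited values are log2 intensities that the authors had processed by RMA, and the RMA version and genome build are not given in the sources used here. Background correction and normalization had thus been done, and no detection calls came with the values. Of 53617 probe sets, 23866 carry 1 gene symbol in the platform annotation, 1852 carry several and were not assigned, and 27899 have none there. For 630 genes with more than 1 probe set, the probe set brightest on average over the 12 samples was kept, which gave 22392 genes. Entrez IDs linked 22560 probe sets to RefSeq, and 0 symbols needed an update.

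The 4 group means were fitted together in limma 3.58.1 under R 4.3.3 with eBayes moderation, with Benjamini-Hochberg adjustment across the 22392 genes. The fit was tested on simulated data. Every called gene is named, and sample values are given for the 12 largest rises and falls and for some genes described by role. Genes followed by the study are given as a difference with its SE. The members and the 49 gene lists were chosen with earlier results of these data known. Alternatives were every probe set, a dim filter (mean log2 value of at least 5), other scalings, trend and robust moderation, the 6 samples alone, a replicate block, averaged probe sets, an adjusted p under 0.01, the methods' t-test and leaving out each sample. Promoter windows are from RefSeq (GRCh38.p14), and 37 of the 52 genes had one.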

Additional observations from a re-analysis of the deposited data

Results flagged for a closer look

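The change with tubacin differed between cells with and without erastin for 45 of the named genes, by limma's interaction contrast (adjusted p under 0.05 over all 22392 genes). The interaction is the change on adding tubacin to erastin minus the change with tubacin alone, and 3369 genes (15%) passed it in all. Of the 45, 35 are among the 52 genes changed by tubacin alone. Those were chosen for a large change in samples that also enter the interaction, which pulls the interaction away from that change, so the values are given as a description.

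Among the genes that rose with tubacin alone, 16 had a negative interaction. DKK1 had -2.29, FST -2.12, LIPK -1.83, MIG7 -1.75, ANKRD22 -1.24 and CPA4 -1.23. IL7R had -1.22, EGR1 -1.11, PI15 -1.06, TNFSF15 -1.02, SLITRK4 -0.996 and FOSL1 -0.98. LIF had -0.91, EPGN -0.81, TRBV27 -0.79 and SLITRK6 -0.49. The other 4 rose further with erastin, with an interaction of 1.13 for MVP, 0.86 for LIPH, 0.58 for TMT1B and 0.32 for HID1.

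Among the genes that fell with tubacin alone, 11 had a positive interaction. KSR1 had 1.32, LHFPL2 1.31, ST6GALNAC2 1.25, CYP24A1 1.23, SMOX 0.89 and LDC1P 0.88. LINC00673 had 0.59, PLCG2 0.54, PTGES 0.49, SIK1 0.48 and MMP7 0.35. The other 4 fell further with erastin, with an interaction of -1.30 for SCNN1G, -0.78 for LXN, -0.70 for GABRQ and -0.54 for AGMAT.

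The remaining 10 were not called with tubacin alone. The interaction was 3.09 for MT1H, 2.74 for ATF3, 2.69 for MT1M, 2.23 for MT1G and 2.12 for HMOX1. It was 1.97 for SLC30A2, 1.77 for HDAC5, 1.56 for BCL2L11, 1.002 for SLC30A1 and 0.86 for HDAC11.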

How the results depend on the processing

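The direction of all 52 changes was the same in every alternative that tested the gene, taken for each gene on the same probe set or on the average of its probe sets. Most alternatives leave the difference of means unchanged. Leaving out a sample cannot turn a sign either, because the groups did not overlap for any of the 52. Only the 3 other scalings and the averaged probe sets could have changed a direction. The second, dimmer probe set of PLCG2 had the opposite sign (0.053 ± 0.14). The count of 52 (24 higher, 28 lower, 11 at least 2-fold) was 51 after a further quantile normalization, 53 after cyclic loess, 48 after median centring and 52 with probe sets averaged per gene. It moved to 22 (11 and 11) over every probe set, to 205 (100 and 105, 7 at least 2-fold) with dim genes left out and to 211 (110 and 101) with trend and robust moderation. An adjusted p under 0.01 gave 18 (7 and 11) for tubacin alone, and 3857 of the 5782 for tubacin added to erastin. The fit of only the groups compared gave 0 in every direction, and so did the methods' t-test after adjustment, whose smallest adjusted p was 0.152. The methods' t-test without adjustment gave 2011 (1002 and 1009, 18 at least 2-fold). Leaving out 1 sample gave 15 to 41 genes, 6 to 17 higher and 9 to 24 lower, 9 to 14 of them at least 2-fold, and 4777 to 5980 for tubacin added to erastin. The lowest counts came without tubacin replicate 1 (15), 2 (18) and 3 (22), and those without a control replicate were 35, 26 and 33. The count of 52 also fell to 29 to 36 without an erastin sample and 33 to 41 without a sample of both drugs, where the changes themselves stay the same and only the estimated spread differs.

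With the replicate number as a block, 23 genes were called (9 higher, 14 lower), all of them among the 52. Samples with the same number did not deviate together (correlations of -0.061 to 0.047 over 18 pairs), so the numbers were not taken to pair the samples.

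Without detection calls or background signals, levels such as those of KCNJ6 with tubacin or LIPK in control are not shown to lie above background, and their folds may be understated. No depth is defined for arrays, and 3 samples a group limit the precision. A median standard error of 0.14 leaves changes of this size without a call.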
